A study of Ginkgo biloba with 2 samples.

Results

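The 22-base miRNA names described here are 45 of the 723 known miRNA names in 2 small RNA libraries of Ginkgo biloba, a gymnosperm tree with separate female and male plants. They are the names numbered 1000 or higher, most of them described in few plant lineages, whose listed sequence was 22 bases long in each library that listed the name. A further 16 names with such numbers were left out by name beforehand, 2 of which would have met the length rule. One library came from mature leaves of female trees and 1 from mature leaves of male trees, both without treatment and from trees about 30 years old that grew outdoors. The labels do not say whether a library is 1 tree or a pool, and they name no strain or genotype. The library totals were 13193290 reads for female and 12137619 for male leaves, worked out from the deposited levels and read counts. Of these totals, 18.7% and 20.2% carried a known miRNA name. Which reads the totals cover is not known here. With 1 library per sex there was no replicate, so each difference below is between these libraries and carries no p-value.

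Plant miRNAs are cut from hairpin precursors by Dicer-like enzymes and loaded into Argonaute proteins, which use them to find and cleave matching transcripts. Most are 21 bases long. In flowering plants a miRNA of 22 bases can do more than cleave: it can recruit an RNA-dependent RNA polymerase to the target, which is then copied and diced into phased secondary siRNAs. The first base matters too, since in Arabidopsis a 5′ U favours AGO1, a 5′ A favours AGO2 and a 5′ C favours AGO5.

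The 6 members that reached 100 RPM (reads normalised to library size, as deposited) in at least 1 library are shown first because they hold most of the reads. Capitals mark the seed, bases 2 to 8 from the 5′ end, and T stands for U as in the deposited listing. For 5 of the 6 the same sequence was listed in both libraries, and for miR5673 the sequence is from the male library.
miR4388: aTCTAGTGgacaagttgacagc
miR6140: cGGTTGAGtggcatcattcacc
miR5813: aCAGCAGGacggtggtcatgga
miR5673: cGTCGATCtgggcggaagacat
miR4376: aCGCAGGAgacatgacgccggt
miR8036: aTGGTCTTtcctacgcctccca
No 2 of the 45 members shared a seed. The 5 members miR2093, miR4349, miR7122, miR7980 and miR8024 each shared one with a known name outside the group.

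Together the 45 names made up a small part of the known miRNA pool, 1.06% of its reads in the female library (exact 95% interval 1.05 to 1.08%) and 1.24% in the male library (1.23 to 1.26%). These intervals are Clopper-Pearson and cover counting error alone. Whether the count of a name covers its listed sequence or all reads given that name is not stated, and every read share below carries that doubt. A pair of names held most of these reads: miR4388 and miR6140 took 76.1% of the members' reads in female and 74.6% in male leaves. The 6 highest members by mean level took 94.7% and 94.6%. At the other end, 15 members had at most 3 reads in each library and 9 of these rested on 1 read in all. In all, 17 members, the 6 highest included, had 100 or more reads in at least 1 library.

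**Figure D1:**
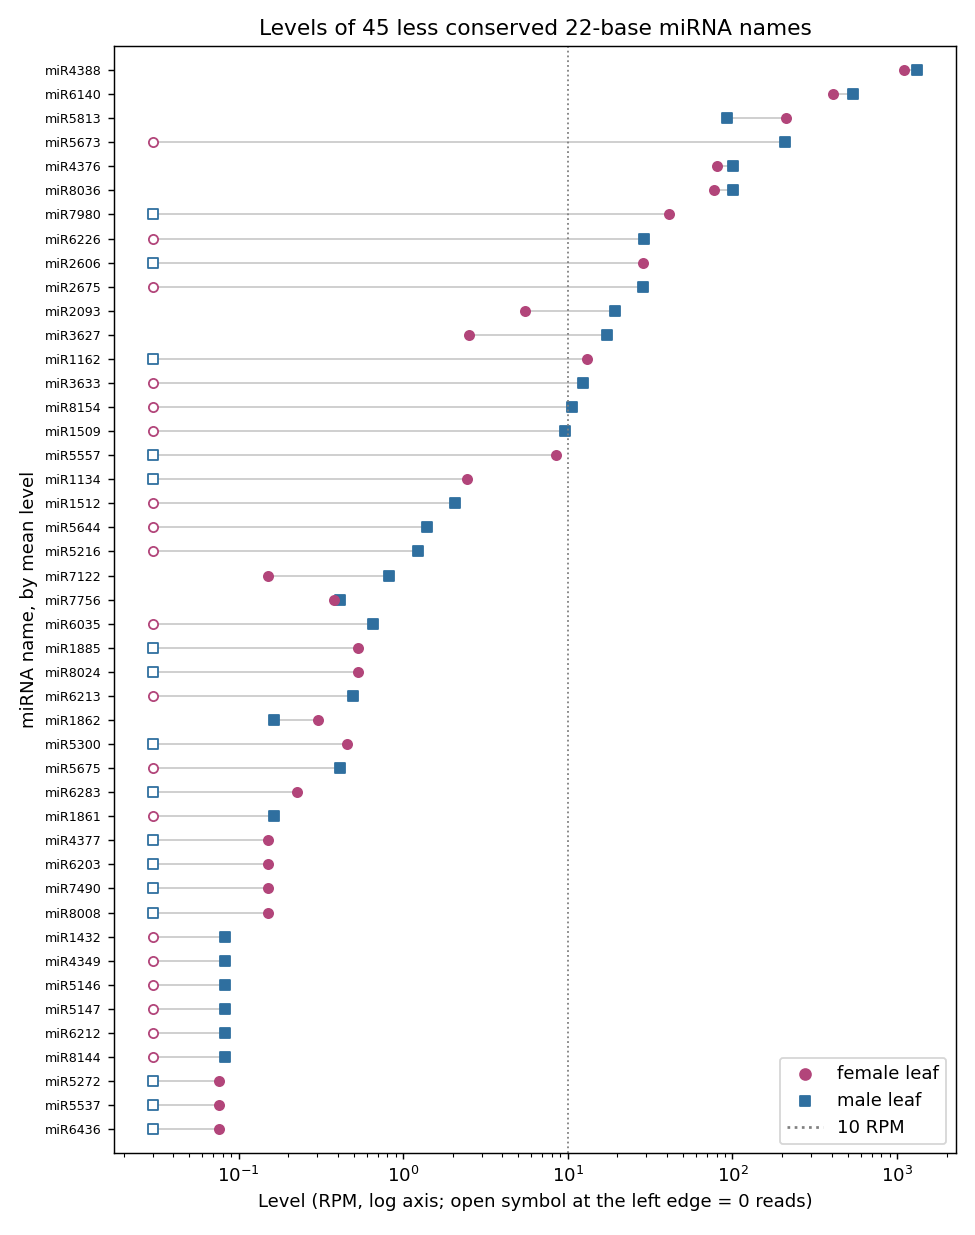
Level of each of the 45 members in RPM on a log axis, female leaf as circles and male leaf as squares, with open symbols at the left edge for 0 reads and a dotted line at 10 RPM. miR4388 stands highest in both libraries, at 1106 and 1326 RPM, and 35 names have an open symbol in 1 library.

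Presence was split between the libraries. The female library listed 26 members and the male library 29, with 16 in the female alone, 19 in the male alone and 10 in both. Over all 723 known names 46.9% were found in both, but the choice of names lowers the members' share: a name in 1 library meets a length rule more easily than a name in both. With the 22 names that were 22 bases long in 1 library and another length in the other, 32 of 67 names (47.8%) were found in both. This wider rule errs the other way, since each of the 22 added names is in both libraries by definition. The members found in both included 5 of the 6 most abundant. Of those found in 1 library, 3 female and 5 male ones reached 10 RPM, and the highest had 540 and 2524 reads. A 0 in either library allows up to 3 reads, which is 0.227 RPM in female and 0.247 RPM in male leaves.

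Among members of at least 10 RPM, 4 lay within 2-fold between the libraries, and these include the most abundant pair. miR4388 stood at 1106 RPM in female and 1326 RPM in male leaves (14591 and 16089 reads). Its male level was 1.20-fold the female level (exact 95% interval 1.17 to 1.23). miR6140 stood at 407 and 542 RPM (5370 and 6577 reads), 1.33-fold higher in the male library (1.28 to 1.38). Both differences exceeded counting error, but neither has a replicate check. miR4376, a family that targets a calcium ATPase in tomato, stood at 80.3 and 100.3 RPM (1059 and 1217 reads), a male excess of 1.25-fold (1.15 to 1.36). miR8036 stood at 77.2 and 100.5 RPM (1018 and 1220 reads), a male excess of 1.30-fold (1.20 to 1.42). The 117 known names that reached 10 RPM in female and in male leaves were themselves shifted towards the male library, by a median of 1.17-fold (log2 -0.23). Relative to that shift the log2 female over male differences of miR4388, miR6140, miR4376 and miR8036 were -0.03, -0.18, -0.09 and -0.15.

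In all, 15 members reached 10 RPM in 1 or both libraries, and the other 11 of them differed by 2-fold or more on log2 of (female RPM + 1) over (male RPM + 1), a scale on which low names differ by less than their read ratio. Of these, 4 were higher in female and 7 in male leaves. Over all 232 known names that passed the same minimum, 29.3% were 2-fold or more higher in female leaves and 33.2% were so in male leaves, so the members' 4 and 7 of 15 stand beside a background of 62.5% in either direction and set them little apart from it. Since a name found in 1 library could pass the minimum through its high side alone, these counts describe the members that passed and not all 45. The median log2 difference of the 15 was -0.41, against -0.27 over the 232 names. The 15 values were widely spread, from -7.71 (miR5673) to 5.39 (miR7980). An order-statistic interval for their median, which treats names as independent, ran from -3.73 to 1.18. All 15 names come from the same 2 libraries, so this interval reflects spread among names and not the error of a difference between the sexes. The median was -0.11 over all 45 members without a minimum and -0.91 with names of 22 bases in 1 or both libraries. Without miR5813 and miR1162 it was -1.66, so no weight rests on its size.

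**Figure D2:**
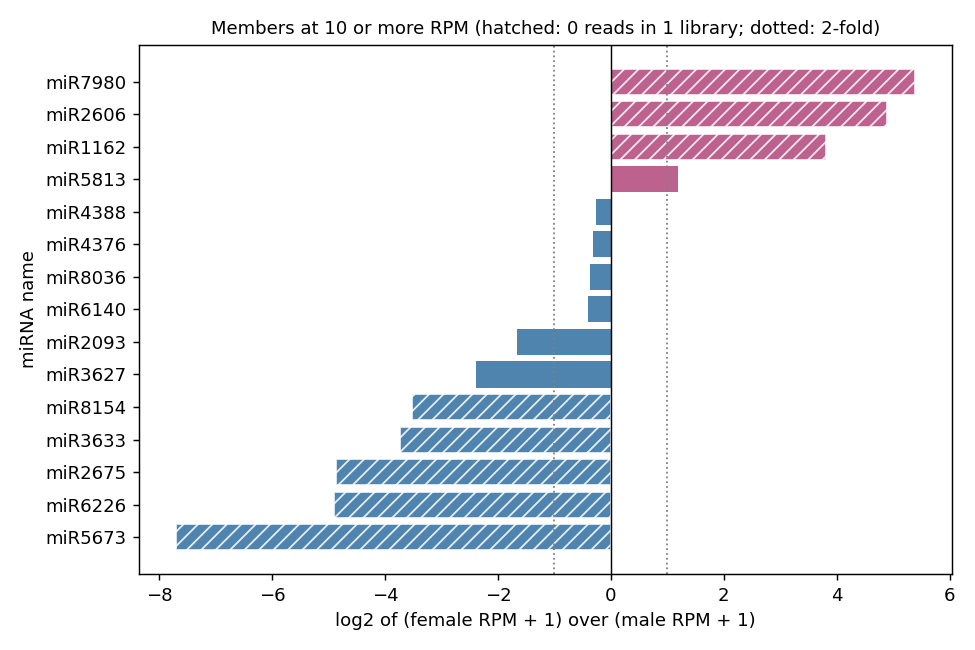
Difference between the libraries as log2 of (female RPM + 1) over (male RPM + 1) for the 15 members that reached 10 RPM, with dotted lines at 2-fold and hatching for names with 0 reads in 1 library. The 4 bars within the dotted lines are miR4388, miR6140, miR4376 and miR8036, and 8 of the 11 beyond them are hatched.

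Among the members higher in the female library, 1 was found in both. miR5813 stood at 212 RPM in female and 93.2 RPM in male leaves (2802 and 1131 reads) with the same listed sequence, a female excess of 2.28-fold (exact 95% interval 2.13 to 2.44). The others had no male read. miR7980 stood at 40.9 RPM in the female library (540 reads), at least 166-fold above a male limit of 3 reads (exact 95% lower limit 134-fold). miR2606 stood at 28.6 RPM (377 reads), at least 116-fold above that limit. miR1162, a name first given in the green alga Chlamydomonas, stood at 13.1 RPM (173 reads), at least 53.1-fold above it. All 4 of these sequences start with A or C, and 2 of the 4, miR5813 and miR1162, are taken up again below with the sequences they resemble.

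On the male side, miR2093 and miR3627 were found in both libraries with the same listed sequence. miR2093 had 72 female and 236 male reads (5.46 and 19.4 RPM), a male excess of 3.56-fold (exact 95% interval 2.73 to 4.71). With a pseudocount of 10 RPM it fell just within 2-fold (log2 -0.93). miR3627, described in grapevine, had 33 and 211 reads (2.50 and 17.4 RPM), a male excess of 6.95-fold (4.80 to 10.4). The remaining 5 had no female read. The highest, miR5673, stood at 208 RPM in the male library (2524 reads), at least 915-fold above a female limit of 3 reads (exact 95% lower limit 743-fold). It was the fourth most abundant member by mean level on that library alone. miR6226 stood at 29.0 RPM (352 reads, at least 128-fold) and miR2675 at 28.4 RPM (345 reads, at least 125-fold). miR3633, also described in grapevine, stood at 12.3 RPM (149 reads, at least 54.0-fold) and miR8154 at 10.5 RPM (128 reads, at least 46.4-fold). These 5 are male names by presence, and whether they would be absent from another female tree cannot be told from 1 library.

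miR2675 was partly alike in sequence to 3 names that are also high in the male library, below the 16 matching positions asked for further down. Its sequence matched the male sequence of miR8142 at 15 of 22 aligned positions, that of miR5163 at 14 of 20 and that of miR5338 at 13 of 18. Matches at this lower level were looked up for these 3 names alone, which were among those left out by name. How many other known names match miR2675 as well was not counted, so the likeness carries no weight. miR8142 had 87 female and 36290 male reads, miR5163 had 0 and 5508, and miR5338 had 8 and 92590. The male sequence of miR8142 reads like let-7, a miRNA family of animals, but no let-7 sequence was compared here. The part of such sequences in the level of miR2675 was not tested, and without miR2675 the male count was 6 of 14.

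Below 10 RPM, the best covered members were again found in 1 library. miR1509, a trigger of secondary siRNAs in legumes, had 117 male reads (9.64 RPM) and no female read, at least 42.4-fold above the limit. miR5557 had 112 female reads (8.49 RPM) and no male read, at least 34.3-fold. miR1134 followed with 32 female reads, and miR1512, described in soybean, with 25 male reads. Of the 3 members found in both libraries at such levels, miR7756 had 5 reads in each, miR1862, described in rice, had 4 female and 2 male reads, and miR7122 had 2 and 10. At these depths a difference between the libraries was not detectable for miR7756, whose interval ran from 0.212 to 3.997 (female over male), nor for miR1862 (0.264 to 20.3).

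Sequence similarity tied several members to one another or to better known families. Each member was aligned without gaps, at shifts of up to 5 bases, to every other known name. Of 31500 such pairs, 14 matched at 16 or more positions (0.0444%), and they involved 11 of the 45 members. No pair reached this on the reverse complement. The largest group formed around miR4376. In flowering plants miR4376, miR3627 and miR7122 are placed in a superfamily that descends from miR390, and miR391 is a relative of miR390 in Arabidopsis. The sequences below are shown because 3 members and 2 names outside the group share the stretch CAGGAGA, in capitals, which the female sequence of miR5225 lacks.
miR4376: acgCAGGAGAcatgacgccggt
miR3627: ctggcgCAGGAGAgatggcgtc
miR1432 male: atCAGGAGAgatgacatcgaca
miR391 female: ttcgCAGGAGAgatgacgccgg
miR391 male: ctgcgCAGGAGAgatgacgtcg
miR5225 female: ccgcgcaggaaagatgacgc
miR5225 male: cctgcgCAGGAGAgatgacgtc
The stretch was held by 8 of the 723 known names (1.11%), and its reverse complement by none. The holders not shown are miR900, miR3979 and miR5791, none of which matched a member at 16 or more positions. Holding the stretch is thus no mark of this group alone. miR4376 matched the female sequence of miR391 best, at 19 of 21 positions, and miR3627 matched miR5225 at 19 of 22. miR1432, a family of monocots, matched miR391 at 16 of 19 but rested on 1 male read.

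The names of this group differed in direction between the libraries. miR4376 lay within 2-fold, miR3627 was 6.95-fold higher in the male library, and miR391 had 18 female and 63 male reads, a male excess of 3.80-fold (exact 95% interval 2.22 to 6.83). The listed sequence of miR391 differed between the libraries, so its ratio may compare unlike sequences. miR5225 went the other way, with 587 RPM in female and 4.12 RPM in male leaves (7740 and 50 reads), a female excess of 142-fold (108 to 192). Its listed sequence changed as well, from 20 bases in the female to 22 in the male library, which is why miR5225 lies just outside the 22-base group. The male sequences of miR391 and miR5225 shared a stretch of 21 bases, so how male reads were divided between these names is uncertain. Their female sequences shared at most 9 bases in a row.

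**Figure D3:**
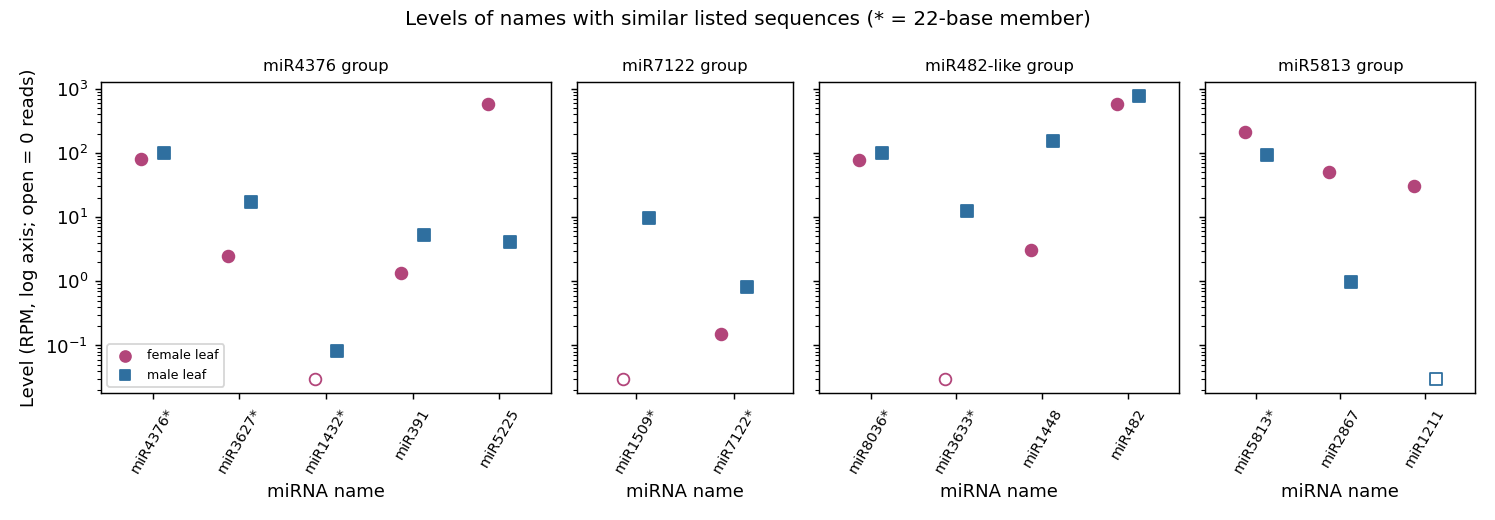
Level in RPM on a log axis of the names in 4 groups of similar listed sequence, female leaf as circles and male leaf as squares, open symbols for 0 reads, with an asterisk on the 22-base members. miR4376 and miR8036 stand at near equal levels in both libraries, whereas miR5225 and miR2867 are far higher in female and miR1448 in male leaves. The listed sequences of miR391, miR5225, miR7122, miR1448 and miR2867 differ between the libraries.

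A second pair, miR1509 and miR7122, shared the stretch GAAATCACGG, marked below, at the same position in each of the 3 listed sequences.
miR1509 male: ttaatcaagGAAATCACGGtcg
miR7122 female: ttatacaatGAAATCACGGccg
miR7122 male: ttagacagaGAAATCACGGtgg
These 2 names alone held this stretch among the 723, and none held its reverse complement. miR1509 matched miR7122 at 18 of 22 positions. In apple and its relatives miR7122 triggers secondary siRNAs from transcripts of pentatricopeptide repeat proteins. Both names were low here: miR1509 had 117 male reads and miR7122 had 2 female and 10 male reads, most of them from male leaves.

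Another pair of members, miR3633 and miR8036, carried the stretch CCTCCCA, which 5 of the 723 known names held (0.692%), the others being miR472, miR482 and miR1448. Its reverse complement was found in 3 names. The families miR482, miR472 and miR1448 are directed at NBS-LRR disease resistance genes in other trees, at a conserved motif of these proteins. The sequences show that the stretch lies inside miR3633 but at the 3′ end of miR8036.
miR3633 male: ttgcctataCCTCCCAttcctg
miR8036: atggtctttcctacgCCTCCCA
miR1448 female: cttttcctacgCCTCCCAtacc
miR1448 male: tttccaataCCTCCCAtac
miR482: tttttccagatCCTCCCAttcc
miR3633 matched miR1448 at 16 of 20 positions, miR6118 at 16 of 22 and miR482 at 15 of 20. miR6118, which lacks the CCTCCCA stretch, had 35582 female and 37122 male reads. miR8036 shared a stretch of 16 bases with the female sequence of miR1448, from which it is offset by 4 bases. miR8036 stood at 77.2 RPM in female and 100.5 in male leaves, while miR1448 stood at 3.11 and 155 RPM. The direction of the small miR8036 difference was that of miR482, which was 1.32-fold higher in the male library (exact 95% interval 1.28 to 1.36), and both are close to the median shift between the libraries.

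miR5813 shared 18 bases with the female sequence of miR2867, which is marked here for the stretch common to all listed sequences of both names.
miR5813: acagcaGGACGGTGgtcatgga
miR2867 female: ccaGGACGGTGgtcatggaa
miR2867 male: cctGGACGGTGatgatggca
The stretch was held by 3 known names, miR5813, miR2867 and miR1211. Unlike miR5813, the other two had nearly all their reads in the female library, miR2867 with 664 female and 12 male reads and miR1211 with 398 and 0. The reads of miR2867 may be those of unlike sequences, since its listed sequence differed between the libraries. The miR5813 sequence reads like a stretch of the 25S ribosomal RNA of flowering plants, and that of miR1162, cGGCTTAAtttgactcaacacg (seed in capitals), like a stretch of their 18S ribosomal RNA. No ribosomal sequence was compared here, and the part of ribosomal fragments in these levels was not tested. Without miR5813 and miR1162, 2 of 13 members were 2-fold or more higher in female leaves.

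Most of the 22-base names began with a base other than U. Of the 45, 17 began with A, 11 with C, 4 with G and 13 with U. Among the 15 members at 10 or more RPM, 1 began with U, namely miR3633, and 12.3 RPM was the highest level of any U-starting member. In reads, U-starting members made up 0.225% of the members' reads in female and 1.02% in male leaves. Less conserved names of 21 bases, chosen by the same rule but for length, carried U at the start in 64.8% of their reads in female and 56.8% in male leaves. By name, 6 of 26 female and 9 of 29 male 22-base sequences started with U (23.1% and 31.0%), against 60.1% and 56.9% of the 21-base ones. A start with U in every library was listed for 28.9% of the 22-base names, 55.3% at 21 bases, 38.7% at 20 or fewer and 45.1% at 23 or more. A majority without U was thus also held by the names of 20 or fewer and of 23 or more bases. At 23 or more bases U-starting names took 25.0% of the reads in female and 89.8% in male leaves. The shares by reads rest on few names: miR4388 alone, which starts with A, took 55.6% of the members' reads in female and 52.9% in male leaves. The median GC content of the listed sequences was 45.5% for the 22-base and 42.9% for the 21-base names.

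Of the 22-base names found in both libraries, 9 had the same listed sequence in each. Those found in both numbered 10 of 45 (22.2%), against 39.2% of 291 names of 21 bases, 27.7% of 119 names of 20 or fewer bases and 22.5% of 71 names of 23 or more bases. The 9 of 10 with an identical sequence (90.0%) left miR7122 as the exception. The figure was 63.2% of 114 shared names at 21 bases, 54.5% of 33 at 20 or fewer and 62.5% of 16 at 23 or more. The rule asks for 1 length in both libraries, which favours identical sequences in the 22-base and 21-base classes alike and drops shared names of unequal length, so these shares are partly set by the choice of names. Of the 9 members with an identical sequence, 7 reached 10 RPM, of which 1 was 2-fold or more higher in female and 2 in male leaves. Among the 96 known names with an identical sequence at that level, 7.29% and 19.8% were so (27.1% together).

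**Figure D4:**
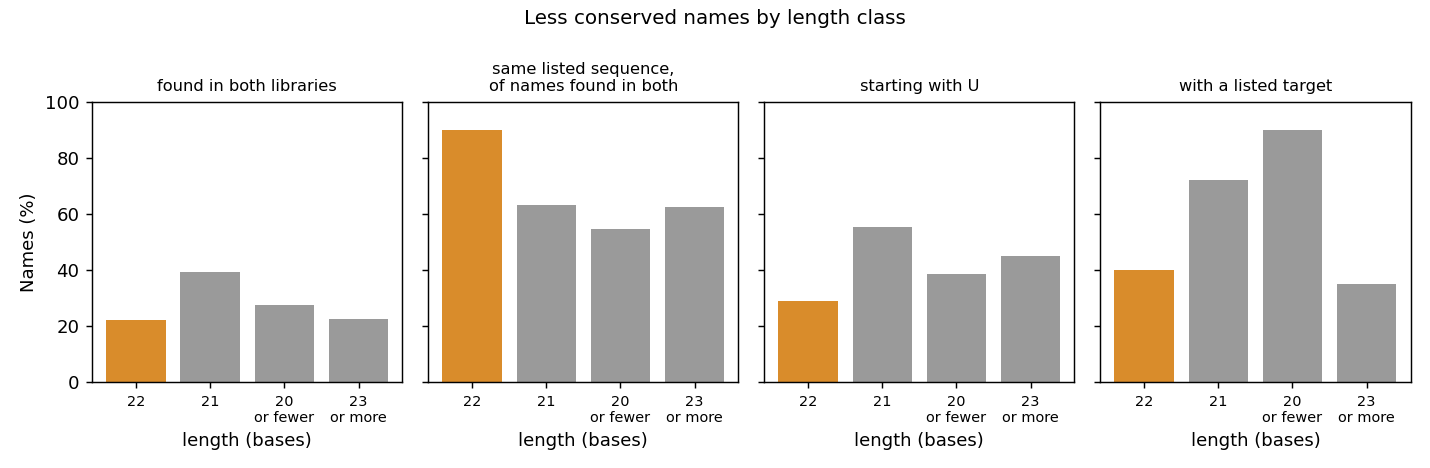
Percentage of less conserved names in 4 length classes that were found in both libraries, had the same listed sequence if found in both, started with U in every library that listed them, or had a listed target. The 22-base class, in orange, stands at 22.2%, 90.0%, 28.9% and 40.0%.

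Predicted targets were listed for a minority of the 22-base names. The target lists are the authors' predictions from the sequences, not measurements, and give transcript identifiers without gene names. At least 1 target was listed for 18 of the 45 members (40.0%), against 72.2% of the 21-base names, 89.9% of those at 20 or fewer and 35.2% of those at 23 or more bases. The most abundant member, miR4388, had none, nor had miR5673 and miR4376. Of the 15 members at 10 or more RPM, 7 had targets. The lists were short, with a median of 1.5 targets, and 9 of the 18 held 1 target. For the 5 members with targets that were found in both libraries, the target lists of the libraries were identical.

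The longest list, 15 targets, was that of miR1162, and 14 of these were public nucleotide records. All 14 were also listed for miR2916, which stood at 141 RPM in female and 103 in male leaves. The miR2916 sequence matched that of miR1162 at 8 positions. It likewise reads like 18S ribosomal RNA, but no ribosomal sequence was compared. miR6140 had 10 targets, all transcripts of the leaf assembly and 6 of them contigs of the single cluster CL249. Of these, 4 contigs were also listed for 5 other known names. miR8154 had 10 targets in 4 contig clusters and 1 single transcript, miR5557 had 7 distinct ones, 4 of them in cluster CL7208, and miR1512 had 6, all public records that were each listed for 27 or more other known names. The 1 target of miR5813, CL2141.Contig2, was also listed for 8 other names, with miR2867 and miR1211 among them.

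A few targets were shared within the sequence groups. One transcript, Unigene8763, was listed for 2 members, miR8036 and miR3633, and otherwise for miR1448 alone, the 3 names being among those with the CCTCCCA stretch. miR8036 had 1 other target, Unigene16518, listed also for miR1448 and miR5301. The 1 target of miR3627, Unigene21109, was listed also for miR391 and miR5225, the names nearest to it in sequence. Since the predictions are made from the sequences, such sharing adds no evidence beyond the sequences themselves.

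The known 22-base triggers of secondary siRNAs were represented by 5 members, most of them at low levels. Of 22 families described as such triggers in flowering plants or conifers, 17 were in the tables, and the 5 members were miR4376, miR1509, miR7122, miR1885 and miR5300. miR4376 was the only one of these 5 above 10 RPM. miR1885, directed at disease resistance genes in Brassica, had 7 female reads and no male read, and miR5300, directed at such genes in tomato, had 6 and 0. Of the 17 families, 8 were listed at 22 bases in each library that listed them and 12 in at least 1. At 10 or more RPM there were 7, of which 1 was 2-fold or more higher in female and 3 in male leaves. Over all 232 names the shares were 29.3% and 33.2%, and the median log2 was -0.40 for the 7 against -0.27 for the 232. The names past 2-fold were miR1507 in female and miR472, miR1448 and miR6027 in male leaves. Each of them had different listed sequences in the libraries. Those with the same listed sequence in both, miR482, miR2118 and miR4376, lay within 2-fold. Secondary siRNAs were not analysed here.

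At the edges of the rule, the lowest-numbered member was miR1134, with 32 female reads, and the highest-numbered 22-base name under 1000 was miR950, with 5 female reads. Names listed at 22 bases in 1 library and at another length in the other numbered 22. The most abundant of these by mean level were miR5225 and miR1507, the latter a trigger family of legumes at 150 RPM in the female (1974 reads, 21 bases) and 21.3 RPM in the male library (258 reads, 22 bases).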

How the data were processed

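Small RNA of female and male leaves was sequenced in 1 library each. The deposited level tables give RPM (named TPM in the files, scaled by the authors to 1 library total). At the library totals worked out from these levels and the read counts, all values equalled whole reads to within 5e-05 RPM. The authors' second table gives raw read counts and 1 sequence per name, and the deposited target tables give counts of predicted transcripts. The sources used here do not name the aligner, miRNA database or target tool, and positions in a genome were not analysed.

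Names were chosen as described, with earlier results of these data known, as were all lists. Ratios carry exact conditional binomial 95% intervals. Absent names were set to 3 reads for fold bounds, which leave out counting error in the other library. The exact 95% lower limits of these members were lower than the bounds, as given for miR7980 and miR5673. Named miRNAs were the 12 highest by mean, the largest ratios in each direction (up to 8), the 5 with most targets, the trigger families and those with shared seeds or stretches; other members named with values were chosen after these were seen. The procedure was tested on simulated reads with set folds and counting error alone (Poisson). That setting holds no differences between trees, so it cannot bear on the differences between the sexes. Alternatives were other pseudocounts (0.1, 10), minima (0, 100 RPM), scalings, a 1.5-fold threshold and other membership rules. Predicted miRNAs were not used here. Python 3.11.15 and scipy 1.17.1 were used.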

Additional observations from a re-analysis of the deposited data

How the results depend on the processing

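Over 15 members and 4 alternatives of pseudocount and scaling, 59 of 60 log2 differences kept their side of 2-fold, the exception being miR2093. All 60 kept their sign, but a pseudocount cannot change a sign, nor can scaling where 1 library has 0 reads. The counts of 4 members higher in female and 7 in male leaves became 1 and 1 with a minimum of 100 RPM, which leaves 6 names, and 1 and 2 with identical listed sequences alone, which leaves 7. Without a minimum they were 6 and 11 of 45 names, and with names of 22 bases in at least 1 library 6 and 11 of 22. The median log2 difference lay below 0 under every alternative run, between -0.11 and -1.66. No weight rests on that common sign. The -0.11 is the value of a name with 1 male and no female read. The -1.66 came from leaving out miR5813 and miR1162, both higher in female leaves, which cannot raise the median. Without miR5813 and miR1162, a choice made after the data were seen like that of leaving out miR2675, the female count was 2. The members' share of known reads was 1.49% (female) and 1.41% (male) with names of 22 bases in at least 1 library, and 0.471% and 0.585% without miR4388. No paired analysis was possible because there was 1 library per sex. Depth limits the 15 members with at most 3 reads, for which no difference could be seen.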
